A study of Mus musculus with 4 samples.

Results

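E2A binding at Runx1, Runx2, Runx3 and Cbfb was read from the peak lists of an E2A ChIP-Seq experiment on sorted mouse thymocytes. A peak was given to one of these 4 genes when its midpoint lay in the gene body or within 100 kb of it on the mm9 assembly. By this rule 41 of the 17532 peaks in DP cells belonged to the 4 loci, and none of the 1516 peaks in iNKT cells did. By the same rule 65.0% of protein-coding genes had a DP peak and 16.9% had an iNKT peak. The numbers of DP peaks were 16 at Runx1, 7 at Runx2, 12 at Runx3 and 6 at Cbfb. The DP cells (CD1dTet- CD4+ CD8+) are the stage from which iNKT cells (CD1dTet+ TCRβ+) are selected, and both were thymocytes of L-DKO mice aged 3 to 5 weeks. L-DKO mice are Id2 f/f Id3 f/f LckCre+, so both cell types lack the E protein inhibitors Id2 and Id3 through a Cre driven by the T lineage promoter Lck, and both come from pooled mice on a C57BL/6 or mixed C57BL/6 and 129 background. No library from mice with intact Id genes is analysed here, and a peak list cannot show whether the sorted cells express their markers or have lost Id2 and Id3. Each cell type had 1 E2A library and 1 input library of sheared chromatin without the antibody step, so a peak has no replicate error and no difference between cell types was tested. Each peak carries a score from the peak caller MACS, which is 10 times the negative log10 of its p-value and starts at 50 in both lists. The depth of the libraries is unknown and the score grows with depth, so scores were ranked within a list and not compared between lists.

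RUNX proteins are transcription factors that bind DNA through a shared Runt domain, and CBFβ, the product of Cbfb, is the partner that makes this binding stable. Runx1 is needed for the formation of blood stem cells and acts throughout thymocyte development, Runx3 silences Cd4 and directs the CD8 lineage, and Runx2 is best known as the regulator of bone formation. Each Runx gene is transcribed from a distal and a proximal promoter that give proteins with different N-termini, while Cbfb has no such pair. E2A is an E protein that binds E-boxes, and the E-box CAGGTG is its preferred core.

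The sequences shown here surround an E-box in the highest DP peak of each locus and in the peaks at the Runx promoters, since these are the peaks described in full. The lists do not show which base of a peak is bound. They are read from the plus strand of mm9, 5′ to 3′, with the E-box in capitals, and CACCTG is CAGGTG on the other strand. In most cases 60 bases are shown around the CAGGTG nearest to the peak's midpoint. Only 30 are shown where an untranslated exon is near.

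Highest Runx1 peak, intron between the promoters, chr16:92741280-92741339: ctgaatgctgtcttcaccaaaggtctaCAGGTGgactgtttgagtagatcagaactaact
Highest Runx3 peak, downstream of the gene, chr4:134762126-134762185: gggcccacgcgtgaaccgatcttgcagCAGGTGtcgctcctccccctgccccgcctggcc
Highest peak near Cbfb, inside E2f4, chr8:107822737-107822796: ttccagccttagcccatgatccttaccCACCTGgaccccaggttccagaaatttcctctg
Runx1 distal promoter, chr16:92826423-92826482: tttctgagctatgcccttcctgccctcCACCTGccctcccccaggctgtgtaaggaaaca
Runx1 proximal promoter, upstream peak, chr16:92699121-92699180: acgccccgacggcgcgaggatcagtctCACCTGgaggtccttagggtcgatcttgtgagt
Runx1 proximal promoter, peak in the first exon, chr16:92697123-92697152: gtgtaaccgcagCAGGTGgagcgggcctgg
Runx3 distal promoter, chr4:134676300-134676359: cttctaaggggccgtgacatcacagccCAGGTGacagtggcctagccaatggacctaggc

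The highest peak of Runx2 and the peak at the proximal promoter of Runx3 held no CAGGTG, and the CAGCTG nearest to their midpoints is shown instead, a choice made after the values were seen.

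Highest Runx2 peak, intron, chr17:44791517-44791576: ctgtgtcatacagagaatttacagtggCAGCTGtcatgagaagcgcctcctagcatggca
Runx3 proximal promoter, chr4:134709066-134709125: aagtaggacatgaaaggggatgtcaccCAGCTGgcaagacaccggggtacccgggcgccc

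Runx1 is read from the minus strand, at chr16:92601712-92826311 (224.6 kb, ENSMUSG00000022952.9). Of its 16 DP peaks, 14 lay inside the gene, and 11 of these were in the 128.7 kb between the distal start site at 92826311 and the proximal start site at 92697573. This stretch is mostly the long intron of the distal transcripts and is known as a home of blood cell enhancers of Runx1. It held 8.54 DP peaks per 100 kb, against 3.13 from the proximal promoter to the end of the gene, 1.00 in the 100 kb upstream and 1.00 in the 100 kb downstream. A shorter stretch of Runx3 was denser. Its 25.5 kb from proximal promoter to gene end held 3 peaks, or 11.8 per 100 kb. Over the autosomes and the X chromosome the DP list held 0.664 peaks per 100 kb.

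All 7 Runx1 peaks with a score of 500 or more lay between its promoters. The highest, chr16:92740971-92742556, had a score of 1790.05 and ranked 756 of 17532, 84.5 kb past the distal start site and 44.2 kb before the proximal one. The next, chr16:92759437-92762904, scored 1679, ranked 829 and was the widest of the 41 peaks with 3468 bp, and its midpoint lay 65.1 kb past the distal start site. They stood in the top 4.31% and 4.73% of the DP list. The third, chr16:92715116-92717170, scored 1197 at 110 kb past the distal start site and ranked 1330. The other 4 had scores of 970.25 at 24.3 kb, 943 at 58.5 kb, 704 at 4.19 kb and 627 at 82.0 kb past the same start. The remaining peaks of this stretch ranged down to a score of 54.4, at 39.3 kb, which is close to the lowest score that the list holds.

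The start sites of Runx1 were both covered, but by peaks of moderate score. The peak over the distal start, chr16:92825406-92827013, had a score of 236 and ranked 6106, and its midpoint in an untranslated exon lay 0.102 kb past the start. At the proximal start a peak with a score of 120.3, chr16:92697482-92699590, covered the site itself with its midpoint 0.963 kb upstream. A second peak, chr16:92696474-92697295, scored 128 with its midpoint 0.689 kb downstream, and the gap between these peaks was 0.186 kb. Inside the gene past the proximal promoter, peaks at 52.3 and 76.2 kb from it scored 378 and 180.4. Outside the gene, 1 peak 41.6 kb upstream of the distal start scored 273 and 1 peak 26.9 kb past the gene's end, with the start of Clic6 as the nearest coding start, scored 84.2.

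**Figure D1:**
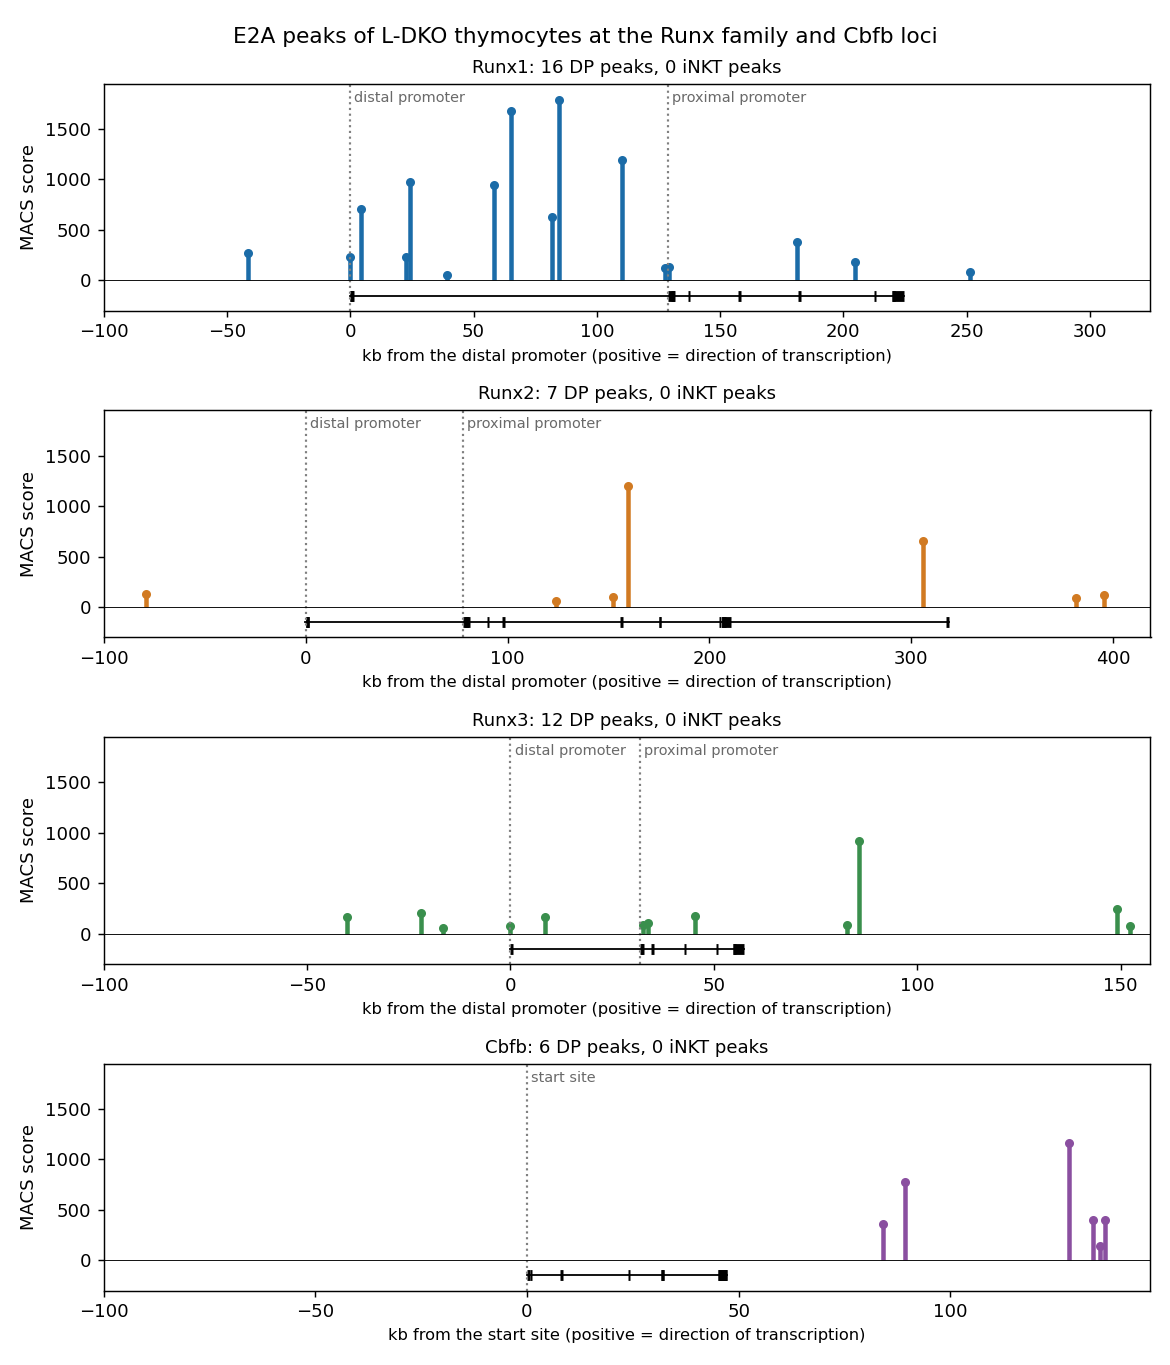
DP E2A peaks at the 4 loci, with the distance of each peak's midpoint from the distal promoter (from the start site for Cbfb) in kb on the horizontal axis and its MACS score as the height of the line; exons of protein-coding transcripts are black boxes and dotted lines are start sites. The 7 highest Runx1 peaks stand between its promoters, Runx2 has 0 peaks between its promoters, and all 6 peaks near Cbfb lie past the end of the gene.

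Runx3 is a shorter gene, on the plus strand of chromosome 4 at chr4:134676567-134733905 (57.3 kb, ENSMUSG00000070691.4). It had 12 DP peaks, of which 4 were inside the gene, and it was the only Runx gene besides Runx1 with peaks at both promoters. A peak with a score of 74.2 and a rank of 13373, chr4:134676028-134676806, covered the distal start site at 134676567. The proximal start site at 134708411 lay 0.520 kb outside a peak with a score of 81.9, chr4:134708931-134709543, and a second peak with its midpoint 1.88 kb past that start scored 103.6. Between the promoters, 31.8 kb apart, there was 1 peak, with a score of 167.6 at 8.52 kb past the distal start. The fourth peak inside the gene scored 173.3 at 13.5 kb past the proximal start. No peak inside Runx3 therefore reached a score of 200.

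Upstream of Runx3, whose distal promoter is the one active in CD8 T cells, peaks at 40.3, 22.1 and 16.7 kb before the distal start scored 169.8, 208 and 59.1. The highest Runx3 peak lay downstream, 28.3 kb past the end of the gene at chr4:134761694-134762792, with a score of 914 and a rank of 1860. Its nearest coding start site was still that of Runx3. A peak with a score of 85.7 stood 25.5 kb past the end. The last 2 of the 12 peaks, with scores of 248 and 71.6, lay 3.02 kb past and 0.142 kb before a start site of Clic4, a chloride intracellular channel gene, and are in the Runx3 window only by distance.

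Runx2, on the minus strand of chromosome 17 at chr17:44632936-44951746 (318.8 kb, ENSMUSG00000039153.9), is the longest of the 4 genes and held 4 peaks in its body, all past the proximal promoter. No DP peak lay in the 77.9 kb between the distal start at 44951530 and the proximal start at 44873597. The nearest peak edge was 78.8 kb from the distal start and 45.6 kb from the proximal one. The highest peak, chr17:44791030-44792296, scored 1204 and ranked 1313 at 81.9 kb past the proximal start. A second intronic peak, chr17:44644913-44646052, scored 656 and ranked 2595 at 228 kb past that start. The other 2 in the gene scored 101.7 and 54.9. Outside the gene, a peak 79.2 kb upstream of the distal start scored 133 and had its midpoint inside Supt3h, a gene of the SAGA coactivator family, and peaks 63.2 and 77.2 kb past the gene's end scored 87.9 and 121. The coding start nearest to these last peaks was that of Clic5, not of Runx2.

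Cbfb, on the plus strand of chromosome 8 at chr8:107694574-107741886 (47.3 kb, ENSMUSG00000031885.7), had no DP peak in its body and none in the 100 kb upstream. Its 6 peaks lay 36.8 to 89.3 kb past the end of the gene, in a stretch dense with other genes, and each had the start site of another gene nearest. The midpoints fell 0.368 kb past a start of B3gnt9-ps, 0.703 kb past a start of Tradd, an adaptor of TNF receptor signalling, and 1.11 kb past a start of E2f4, a cell cycle repressor. The other 3 lay around the start of Elmo3, at 1.13 kb before it and 0.365 and 1.56 kb past it. Their scores were, in the same order, 364, 774, 1159.9, 397, 137 and 398, and the E2f4 peak ranked 1376. The Cbfb start site at 107694574 was 83.1 kb from the nearest peak edge.

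Of the 7 promoters of the 4 genes, 4 had a DP peak within 1 kb, which were both promoters of Runx1 and both of Runx3. Among 45974 annotated coding start sites in the genome, 14.5% lay within 1 kb of a DP peak. With the minimum score raised to 100, the 2 promoters of Runx1 remained. Peaks were found both at promoters poor in CpG and at those rich in it. In 1 kb around the start site the ratio of observed to expected CpG was 0.342 at the distal promoter of Runx1 and 0.361 at that of Runx3, which had peaks, and 0.204 at that of Runx2, which had none. It was 0.865 and 0.949 at the proximal promoters of Runx1 and Runx3, and 0.909 and 0.928 at the proximal promoter of Runx2 and the start of Cbfb. The 5 peaks within 1 kb of a Runx promoter scored 74.2 to 236 with a median of 120.3. Over the whole list the median was 113.5 for the 3434 DP peaks within 1 kb of a coding start and 150.7 for the others.

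**Figure D2:**
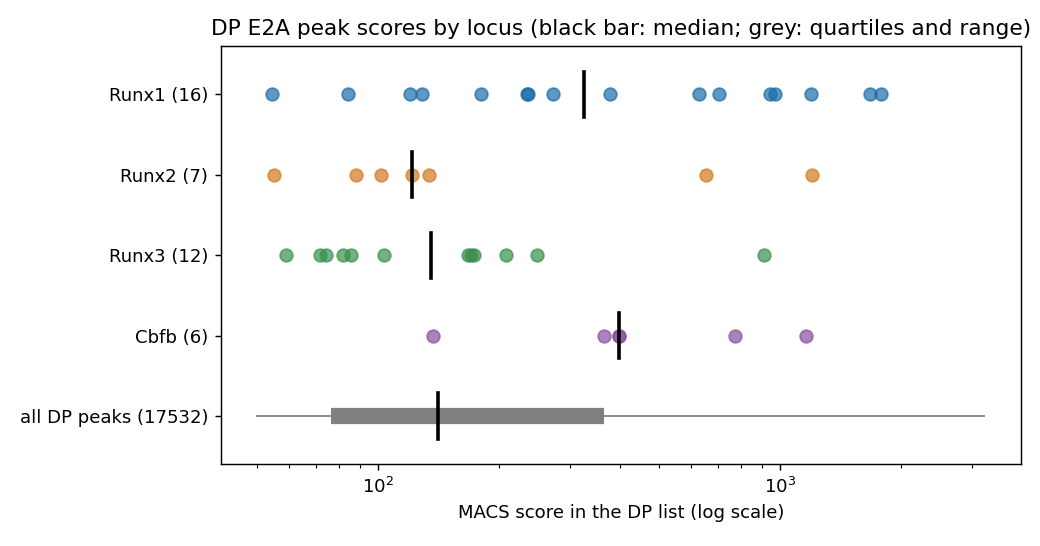
MACS scores (log scale) of the DP peaks at each locus, 1 point per peak, with the median as a black bar, above the quartiles and range of all 17532 DP peaks. Runx1 spans 54.4 to 1790.05 with a median of 325, and 11 of the 12 Runx3 peaks lie at 248 or below with 1 at 914.

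The loci differed in the scores of their peaks. The median score was 325 at Runx1 and 398 at Cbfb, and 121 at Runx2 and 136 at Runx3, beside 141 over all DP peaks. Their ranges overlapped. Of all 41 peaks, 6 (14.6%) were among the top 10% of the DP list, and these were 4 at Runx1, 1 at Runx2 and 1 near Cbfb. Scores under 100 were found for 9 of the 41 (22.0%), 5 of them at Runx3, against 37.4% of all DP peaks. These shares describe the loci and were not tested, since peaks of 1 library are not replicates.

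Among 22367 protein-coding genes counted by the same rule, 65.0% had at least 1 DP peak in the body or within 100 kb, with a median of 2, so that a peak at each of the 4 loci is by itself common. The number of peaks at Runx1 was higher than at 98.5% of these genes, that at Runx3 higher than at 95.7%, that at Runx2 higher than at 84.8% and that at Cbfb higher than at 80.4%. Long genes have wider windows. Per 100 kb of window the densities were 3.77 at Runx1, 4.66 at Runx3, 2.43 at Cbfb and 1.35 at Runx2, higher than at 91.2, 94.8, 81.0 and 64.7% of genes. By density Runx3 thus stood above Runx1. Inside the gene body a DP peak was found at 20.4% of genes, and Cbfb was not one of them.

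**Figure D3:**
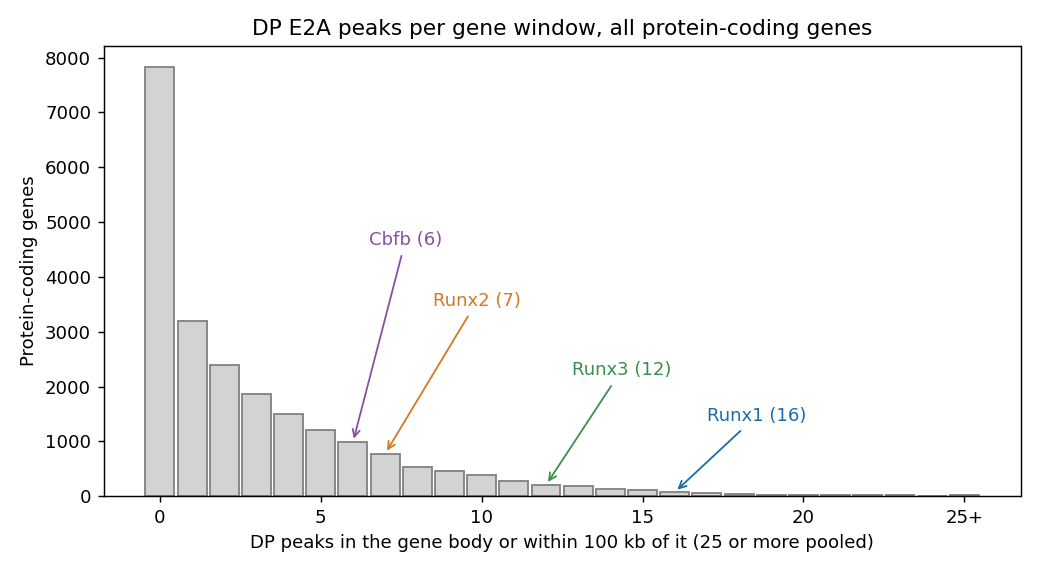
Number of protein-coding genes (vertical axis) by the number of DP peaks in the gene body or within 100 kb of it (horizontal axis, 25 or more pooled in the last bar). Arrows mark Cbfb with 6, Runx2 with 7, Runx3 with 12 and Runx1 with 16 peaks, beside a median of 2 over all genes.

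The iNKT list had no peak in any of the 4 windows, nor when the windows were widened to 200 kb. An iNKT peak in the same window was found at 16.9% of protein-coding genes. The share was higher among genes with many DP peaks. Of the 331 genes with 16 or more DP peaks, the number at Runx1, 69.8% had an iNKT peak as well, and of the 956 genes with 12 or more, the number at Runx3, 55.8% did. Among genes with at least as many DP peaks as Runx2 or Cbfb the shares were 44.9 and 41.0%. Neighbouring genes share peaks, so these genes are not independent of each other.

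The nearest iNKT peak to Runx1, chr16:93152573-93153971, lay 327 kb upstream of the gene with a score of 143 and a rank of 340 of 1516. It is outside the window, but the coding start closest to it was that of Runx1. For Runx3 the nearest was 393 kb downstream at chr4:135125853-135127360, closest to the start of Grhl3, with a score of 90.2. For Cbfb it was 405 kb downstream at chr8:108146311-108147806, closest to the start of Ctcf, with a score of 113. For Runx2 it was 674 kb upstream at chr17:45624997-45626587, closest to the start of Spats1, with a score of 392 and a rank of 78. Each of these 4 iNKT peaks overlapped a DP peak. Such overlap was not particular to them, as 1051 of 17532 DP peaks overlapped a peak of the 1516 in the iNKT list.

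Counted by peak, 0 of the 41 DP peaks overlapped an iNKT peak by 1 bp or more (95% Wilson interval 0 to 8.57%, for counting error only), beside 5.99% of all DP peaks. That interval contains the background share. The share of DP peaks with an iNKT overlap rises steeply with the DP score, and the Runx and Cbfb peaks were found at all levels of it. With all DP peaks cut into 10 equal groups by score and weighted as the 41 peaks fall among them, the share was 7.86%, which the interval also contains. In the top 20% of the DP list, from a score of 477, 20.3% of all peaks overlapped an iNKT peak and 0 of the 12 peaks at these loci did (95% Wilson interval 0 to 24.2%), an interval that contains the 20.3%. The absence of iNKT peaks has no replicate, and with an iNKT library of unknown depth it means only that none passed the calling threshold.

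**Figure D4:**
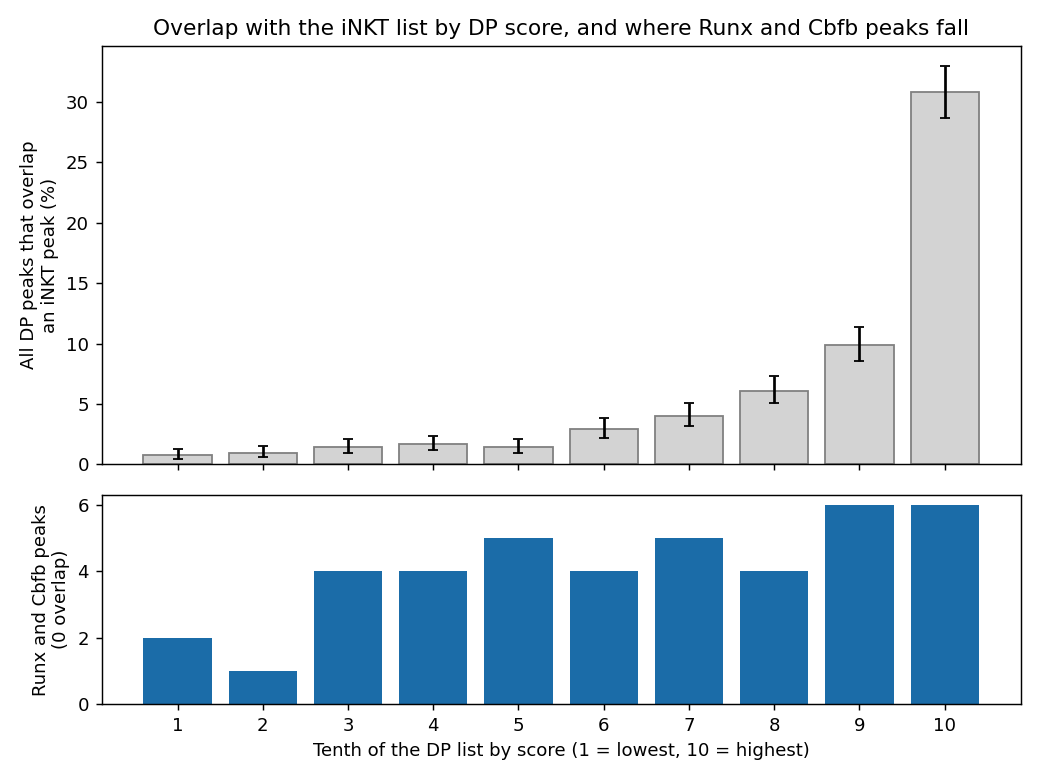
Upper panel, percent of all DP peaks that overlap an iNKT peak in each of 10 equal groups by DP score, with 95% Wilson intervals; lower panel, number of Runx and Cbfb peaks in each group, of which 0 overlapped an iNKT peak. The share is 0.742% in the lowest group and 30.8% in the highest, where 6 Runx and Cbfb peaks fall.

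Short cores were searched on both strands in the 200 bp at each midpoint and in 200 bp windows 2 kb to either side. CAGGTG was found at 19 of the 41 midpoints (46.3%, 95% Wilson interval 32.1 to 61.3) and in 20.7% of their flanks, beside 43.9% of all DP midpoints and 15.5% of all flanks. CAGCTG, the other E-box searched, was found at 12 of 41 (29.3%) beside 29.0% of all midpoints. In the flanks its shares were 9.76% for the 41 peaks and 9.88% for all DP peaks. ACCACA, the core bound by RUNX proteins, was also found at 12 of 41 (29.3%, 17.6 to 44.5) beside 23.8%, and in 9.76% of their flanks (5.03 to 18.1) beside 15.8% of all flanks. For all 3 cores the share over all DP midpoints lay within the interval of the 41 peaks. Both CAGGTG and ACCACA were present at 7 of the 41 midpoints (17.1%, 8.53 to 31.3), beside 10.4% of all.

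By locus the numbers are small, and no difference between loci was tested. At Runx1, 4 of 16 midpoint windows held CAGGTG (95% Wilson interval 10.2 to 49.5%), while 13 of the 16 whole peaks did and 7 of the 16 windows held CAGCTG. In its highest peak the CAGGTG shown above was 454 bp from the midpoint, and the window at the midpoint held 2 CAGCTG sites. At Runx3, 8 of 12 midpoint windows held CAGGTG (66.7%, 39.1 to 86.2), and the E-box in its highest peak and that at its distal promoter were each 88 bp from the midpoint. At Runx2 4 of 7 and near Cbfb 3 of 6 midpoint windows held it. The intervals of Runx1 and Runx3 overlap, and both contain the 43.9% of all DP midpoints. The lists give no summit, for which the midpoint stands in, and this is less exact in wide peaks. The median width was 1327 bp at Runx1 and 857.5 bp at Runx3. Over whole peaks, 31 of the 41 held CAGGTG (75.6%), beside 79.0% of all DP peaks, and of the 12 peaks with a score of 500 or more 10 did, beside 93.2% of all DP peaks of such scores (95% Wilson interval of the 12 peaks 55.2 to 95.3%). Of the 9 peaks with a score under 100, 3 held it (33.3%, 12.1 to 64.6), beside 68.8% of all DP peaks under 100, a share above that interval. In the 200 bp at the midpoint 3 of the 9 held it as well, beside 40.9% of all DP peaks under 100. That share lies within the interval. The 2 peaks of 500 or more without any CAGGTG were the highest Runx2 peak and the Runx1 peak 4.19 kb past the distal start.

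**Figure D5:**
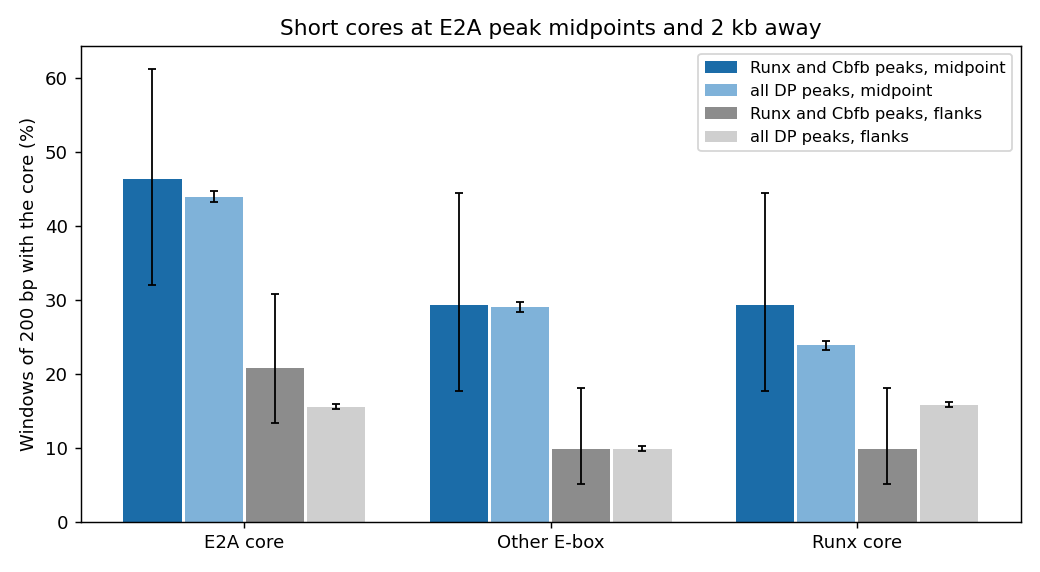
Percent of 200 bp windows that hold the E2A core, the other E-box or the Runx core, at the midpoints of the 41 Runx and Cbfb peaks and of all DP peaks and in windows 2 kb away, with 95% Wilson intervals. For each core the bar of all DP midpoints lies inside the interval of the Runx and Cbfb peaks, 46.3% against 43.9% for the E2A core.

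The core ACCACA was present in 3 of the 5 peaks at Runx promoters, beside 63.5% of all DP peaks taken whole, which is no more than the background. The peak over the distal start of Runx1 held 4 ACCACA sites, 3 of them in the 200 bp at its midpoint, and the peak over the distal start of Runx3 held 3, with 2 at its midpoint. At the proximal promoter of Runx1 the upstream peak held none and the peak in the first exon held 1, and the peak at the proximal promoter of Runx3 held none.

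The most cores of the 41 peaks stood in 1 peak of low score, which was picked out after its values were seen. The peak 26.9 kb past the end of Runx1, chr16:92574471-92575178, had a score of only 84.2 and held 9 CAGGTG and 10 ACCACA sites. They form a tandem array with a period of 36 bp, which was the distance in 9 of 9 steps between neighbouring Runx cores. In 9 of the repeats the E-box and the Runx core run into each other as CAGGTGTGGT, a word of 10 bases in which the last 2 bases of the E-box are the first 2 of TGTGGT, the other strand of ACCACA. The following shows 2 repeats, with these words in capitals.

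Array past the end of Runx1, chr16:92574632-92574703: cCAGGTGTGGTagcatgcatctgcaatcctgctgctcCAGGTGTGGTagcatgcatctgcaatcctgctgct

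The word CAGGTGTGGT, searched on both strands, occurred in 1.55% of DP peaks and in 1 of the 41, which is this peak. It occurred 3 or more times in 7 DP peaks of 17532, and 9 times in this peak alone. In the iNKT list 1.91% of peaks held the word, and the highest number in a peak was 6. How many reads of a repeat can be placed at a single position was not tested.

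Genes that work with RUNX proteins or are regulated by them were looked up by the same rule. Of 6 corepressor genes, 4 had a DP peak and 3 had an iNKT peak, beside 65.0 and 16.9% of all protein-coding genes, so that the DP count is near the background. For the iNKT count, 41.0% of genes with 6 or more DP peaks had an iNKT peak. The 6 corepressor genes had a median of 6.5 DP peaks. Cbfa2t3, a corepressor of the ETO family, had 17 DP peaks of which the highest scored 3100, a value shared by 258 DP peaks, and 5 iNKT peaks, and 5 of its DP peaks overlapped an iNKT peak. Its relative Cbfa2t2 had 11 DP peaks, with the highest at 1891, and no iNKT peak, and Runx1t1 had neither. Among the Groucho corepressors, which bind the C-terminus of RUNX proteins, Tle3 had 10 DP peaks, the highest at 1062, and no iNKT peak, Tle4 had 3 DP peaks and 1 iNKT peak with a score of 64.4, and Tle1 had no DP peak and 1 iNKT peak with a score of 52.3.

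Of 9 genes that RUNX factors are known to regulate in T cells, all 9 had a DP peak and 7 an iNKT peak, beside 65.0 and 16.9% of all protein-coding genes. Genes with many DP peaks had an iNKT peak more often, at 41.0% of those with 6 or more. The 9 genes had a median of 5 DP peaks, so 16.9% is a low background for them. Cd4, which is silenced by RUNX in CD8 cells, had 10 DP peaks, the highest at 3100, and 1 iNKT peak scored 159 at rank 288. Cd8a had 24 DP peaks, all of them outside the gene body, the highest also at 3100, and no iNKT peak. Zbtb7b, which encodes the CD4 lineage factor ThPOK, had 7 DP peaks and 1 iNKT peak scored 219.6 at rank 175. Bcl11b, a factor of T lineage commitment, had 12 DP peaks and 1 iNKT peak with a score of 101.4. The perforin gene Prf1 had 4 DP peaks, all outside the gene body, and an iNKT peak with a score of 91.1. Il7r, Zbtb16 and Ifng had 2 to 4 DP peaks each and 1 iNKT peak each, with iNKT scores of 54.1 to 71.2. The DP peaks of Il7r and Ifng all lay outside the gene body. The integrin gene Itgae had 5 DP peaks, the highest at 2429.9, and no iNKT peak. The list was short and chosen with earlier results of these data known, so its counts are a description.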

How the data were processed

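Each deposited list gives the place and MACS score of every peak. Alignment by the authors was to mm9 with Bowtie 1.1.2, and reads that fit several places were dropped, which removes reads of repeats. The authors then ran MACS 1.4.2 with default parameters, and the lists are named as E2A against input, 1 per cell type. The score deposited by the authors is 10 times the negative log10 of a p-value, and other columns hold positions, given here counted from 1. Reads and inputs are not analysed here, and the depth of each library is unknown.

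Genes, exons and start sites came from GENCODE M1 on NCBIM37, the same assembly as mm9, and 0 peaks lay outside its chromosomes. The distal and proximal promoters of a Runx gene were told apart by the N-terminus that each complete coding transcript encodes, and the start used was the most upstream of its class. A peak's rank is its place in its list from the highest score, and tied peaks share the best place. A DP and an iNKT peak were counted as shared from 1 bp in common. Intervals are 95% Wilson intervals and cover counting error only. No test was made between cell types.

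The 4 genes, the corepressor and target lists and the cores were chosen with earlier results of these data known. Peaks described in full are the highest of each locus, those at promoters and any shared with iNKT cells, and others are given by score and place. In the target list Spi1 has no entry under that name in the annotation. Overlap, window counts, motif search and translation were each tested on simulated data with planted values, which 7 of 7 checks found again. Alternatives changed the window, the minimum score, the overlap, the motif window and the promoter distance. The work used Python 3.11.15, numpy 2.4.6, pysam 0.24.0, samtools 1.23.1 and matplotlib 3.10.9.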

Additional observations from a re-analysis of the deposited data

How the results depend on the processing

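For 16 results, 72 alternative values were computed, of which 52 stayed within 1.5 times a count or within the counting interval of a share and 20 moved. For the percentiles this interval was that of a share of 22367 genes. It is narrow, so every percentile alternative counted as moved, also where the change was small. Under all alternatives run, the numbers of iNKT peaks at the 4 genes and the share of overlap were 0. A smaller window, a higher minimum score or a stricter overlap cannot raise a value of 0. Only the wider settings could have changed these values.
With the gene body alone, the numbers of DP peaks were 4 at Runx2, 4 at Runx3 and 0 at Cbfb. The share of midpoints with CAGGTG was then 31.8% (95% Wilson interval 16.4 to 52.7). That interval contains the 43.9% of all DP peaks and the 46.3% of all 41 peaks. With 50 kb on each side, 4 peaks remained at Runx2 and 2 at Cbfb. These numbers of peaks fall because the window is smaller, and the cause of the lower share was not tested. At a score of 100 or more, Runx3 kept 7 peaks and 2 promoters kept one, and at 200 or more 2 peaks remained at Runx2 and 3 at Runx3, by construction. In whole peaks, which are wider than 200 bp, CAGGTG was found in 75.6% and ACCACA in 58.5%.
The percentile among protein-coding genes moved from 98.5 to 91.2 for Runx1, from 84.8 to 64.7 for Runx2, from 95.7 to 94.8 for Runx3 and from 80.4 to 81.0 for Cbfb when peaks were counted per 100 kb, which put Runx3 above Runx1, and to 99.3, 86.5, 93.3 and 90.4 with scores of 100 or more. The cause of the last 4 was not tested.
No paired analysis was possible because each cell type has 1 E2A library and no result comes from a test, and for the same reason no replicate could be left out. The unknown depth limits any statement on peaks missing from the iNKT list.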
